A study of Mus musculus with 3 samples.

Results

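Single-cell RNA sequencing of dissociated mouse skin held 152 barcodes that met a counting rule for alpha-beta T cells and natural killer (NK) cells, of 20728 barcodes in all. The skin came from C57BL/6 mice aged 9 weeks, and 3 libraries were made, 1 per group. The UV plus vitamin D group received UV irradiation and the agent labelled VD, the UV group received UV irradiation and saline, and the control group was unirradiated and received saline. Dose, timing and the number of mice behind a library are not given in the sources used here, so differences between libraries could not be tested, and mouse, preparation and treatment cannot be told apart.

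Alpha-beta T cells carry a receptor made of a Trac-encoded chain and a Trbc-encoded chain, which signals through the CD3 proteins. CD8 T cells kill infected or altered cells with perforin and granzymes and release interferon gamma, CD4 T cells help or restrain other immune cells, and NK cells kill without a rearranged receptor. In mouse epidermis the resident T cells of unirradiated skin are largely gamma-delta cells, which carry Trdc in place of Trac, and alpha-beta cells that settle in skin after inflammation are known for the adhesion molecule Itgae (CD103), Cd69 and the chemokine receptor Cxcr6.

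A barcode counted as a cell when it held at least 200 detected genes and at most 20% mitochondrial counts. It was a member when Trdc was 0, Lyz2 (a myeloid gene) at most 1 and Col1a2 (a fibroblast gene) 0, and when either of 2 conditions was met. The CD3 arm asked for a sum of at least 2 counts of Cd3e, Cd3d and Cd3g with at least 1 count of Trac, Trbc1 or Trbc2, and the Nkg7 arm asked for at least 2 counts of Nkg7, a granule membrane gene of killer cells, with Cd3e at 0. The members were chosen by the counts of these genes, so their values are given as a description. The CD3 arm took 20 members in UV plus vitamin D, 89 in UV and 6 in control. The Nkg7 arm alone took 8 in UV plus vitamin D, 22 in UV and 7 in control. Some members lay at the edge of the rule. A CD3 sum of exactly 2 was held by 1 member in UV plus vitamin D, 11 in UV and 3 in control. Outside the rule, some cells met all other conditions of the CD3 arm but had a CD3 sum of 1. They numbered 53 in UV plus vitamin D, 55 in UV and 64 in control. In the Nkg7 arm exactly 2 Nkg7 counts were held by 5 members in UV plus vitamin D, 5 in UV and 6 in control. Non-members with 1 Nkg7 count that met all other conditions of this arm numbered 39, 73 and 65 in those libraries. The edge therefore made up more of the control members than of the UV members.

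The 3 libraries held 6199 cells in UV plus vitamin D, 5451 in UV and 9078 in control, with totals of 69126823, 50610389 and 79450666 counts and median totals per cell of 9301, 7566 and 6822. Pairs of libraries shared between 37 and 66 cell barcodes, and no member barcode was shared. Members held 230946 counts in UV plus vitamin D, 657372 in UV and 128920 in control, so that 3 counts, taken as the limit of detection, equalled 12.99, 4.564 and 23.27 CPM (counts scaled to a total of 1000000). Intervals are exact 95% intervals and cover counting error only, and a fold given as "at least" sets a library with 0 counts to 3.

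Members were most frequent in the UV library. They made up 0.452% of cells in UV plus vitamin D (28 of 6199, interval 0.300 to 0.652), 2.04% in UV (111 of 5451, 1.68 to 2.45) and 0.143% in control (13 of 9078, 0.0763 to 0.245). The share was 14.2-fold higher in UV than in control (interval 7.98 to 27.5). It was 4.51-fold lower in UV plus vitamin D than in UV (2.96 to 7.09) and 3.15-fold higher in UV plus vitamin D than in control (1.58 to 6.63). The 3 intervals of the shares did not overlap. Cells of the CD3 kind that carried Trdc ran in another order, at 0.516% in UV plus vitamin D, 0.642% in UV and 1.19% in control.

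**Figure D1:**
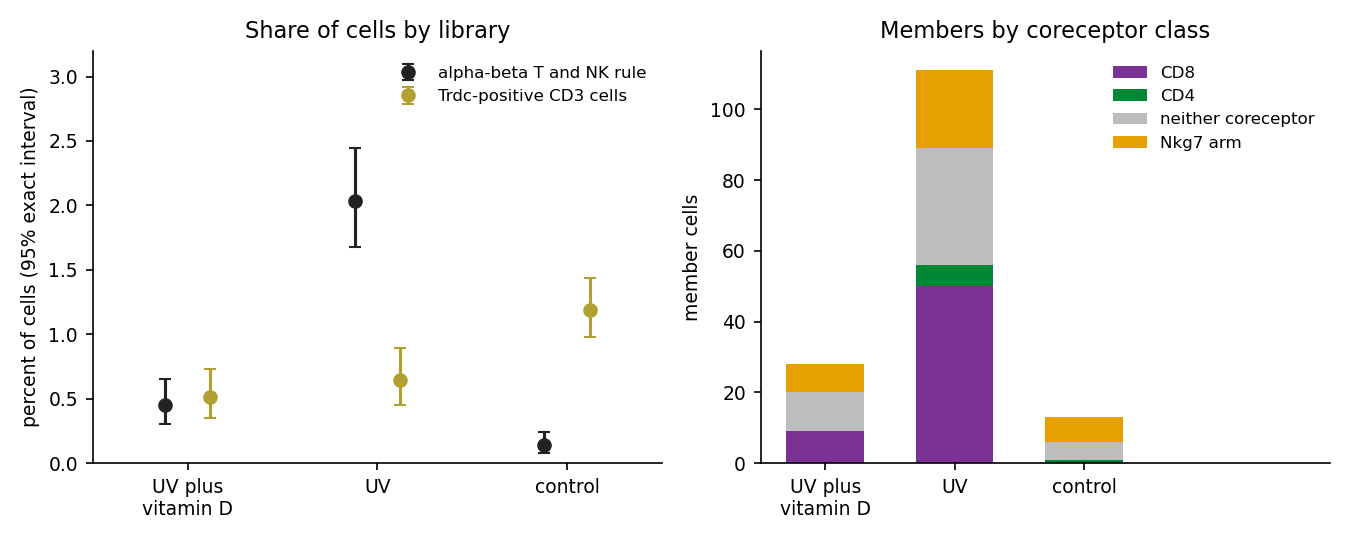
Left, percent of cells in each library that met the alpha-beta T and NK rule (black) or were Trdc-positive CD3 cells (olive), with exact 95% intervals for counting error; right, number of members of each class in each library, 1 library per group. The UV library stands at 2.04% of cells against 0.452% in UV plus vitamin D and 0.143% in control, and CD8 cells are its largest class with 50 of 111 members.

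The label was then checked against T-cell and NK genes that the rule did not use, counted as a pooled set. For T or NK cells together it held in UV, held in part in UV plus vitamin D and did not hold in control. The markers were 10 T-cell genes (among them Cd2, Cd5, Cd6, Lck, Lat, Thy1 and Cd28) and 8 NK genes (Ncr1, Klrb1c, Klre1, Klra8, Klra4, Eomes, Tyrobp, Prf1). At least 2 of these 18 markers were counted in 18 of 28 members in UV plus vitamin D, 104 of 111 in UV and 3 of 13 in control. In the Nkg7 arm of UV, 16 of 22 cells had at least 2 T-cell markers and 6 had at least 2 NK markers. The pooled count therefore does not show that the NK part of the label held. The median number of markers per member was 4.5 in UV plus vitamin D, 5 in UV and 0 in control. Keratinocyte genes took a median of 6.41% of a member's counts in UV plus vitamin D, 0.398% in UV and 6.62% in control, against 8.15%, 5.86% and 6.83% in the other cells of those libraries. Control members thus carried about the keratinocyte share of all other control cells, and 9 of the 13 carried none of the 10 T-cell markers. The only control member with a Cd4 count held 109 counts of Cd74 and 7 of Cd207, genes of antigen-presenting cells and Langerhans cells. Control members are therefore called members by rule only.

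**Figure D2:**
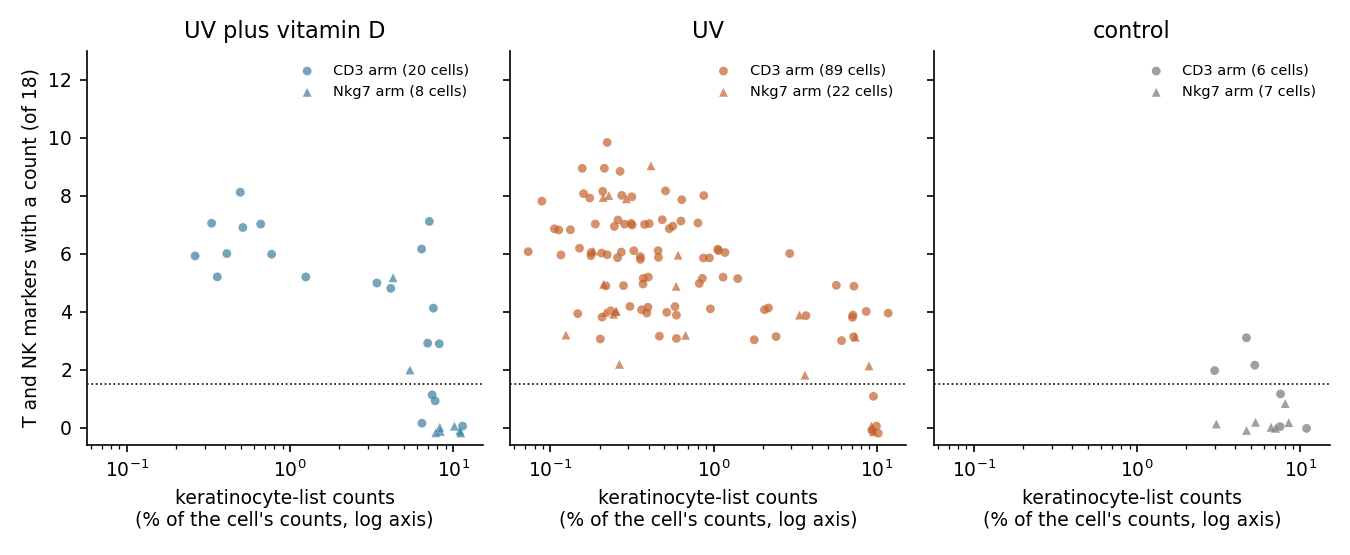
Each point is 1 member; the x axis is the percent of its counts on the keratinocyte list (log axis), the y axis the number of 18 T and NK markers with a count (points are shifted slightly so that ties show), and the dotted line separates members with at least 2 markers. Most UV members lie at the upper left, with 81 of 111 under 1% keratinocyte counts, whereas no control member is under 1% and 3 of 13 are above the line.

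Restricting the count to members with at least 2 markers, called marker-supported below and defined after the values were seen, widened the differences. Marker-supported members made up 0.290% of cells in UV plus vitamin D (interval 0.172 to 0.459), 1.91% in UV (1.56 to 2.31) and 0.0331% in control (0.00682 to 0.0966). The ratio was 57.7 for UV over control (19.2 to 284.5), 6.57-fold lower in UV plus vitamin D than in UV (3.96 to 11.5) and 8.79 for UV plus vitamin D over control (2.57 to 46.6).

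Trac, the constant part of the alpha chain and a gene of the rule, had 72 counts (311.8 CPM) in 18 of 28 members of UV plus vitamin D, 340 counts (517.2 CPM) in 82 of 111 members of UV and 0 counts in 13 members of control. Cells with at least 5% keratinocyte counts gave the background, and 0.230%, 0.862% and 0.339% of them had a Trac count in UV plus vitamin D, UV and control at median totals of 10399, 11319 and 8064. Trbc2, the beta-chain constant gene, was counted in 89.3% of members in UV plus vitamin D, 77.5% in UV and 46.2% in control, against 63.6%, 58.4% and 49.2% of the keratinocyte-rich cells. Trbc2 was thus counted widely outside the rule, and its share in control members was no higher than in those cells. Nkg7 was counted in 85.7% of members in UV plus vitamin D, 86.5% in UV and 69.2% in control, against 1.23%, 3.48% and 1.81% of those background cells.

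The coreceptors split the CD3 arm into CD8 cells (Cd8a counted, Cd4 at 0), CD4 cells (the reverse) and cells with neither. In UV plus vitamin D the 20 cells were 9 CD8, 0 CD4 and 11 neither, in UV the 89 cells were 50 CD8, 6 CD4 and 33 neither, and in control the 6 cells were 0 CD8, 1 CD4 and 5 neither. CD8 cells were 45% of the CD3 arm in UV plus vitamin D (interval 23.1 to 68.5) and 56.2% in UV (45.3 to 66.7), and these intervals overlap. Over all cells, CD8 members were 0.145% in UV plus vitamin D (0.0664 to 0.275), 0.917% in UV (0.682 to 1.21) and 0 of 9078 in control, which allows up to 0.0331% when 3 counts are taken as the limit. The CD8 share was 6.32-fold lower in UV plus vitamin D than in UV (3.08 to 14.6) and higher in UV than in control by a ratio whose exact lower limit was 21.8. No cell carried both coreceptors. Cd8b1, the beta chain of CD8, which the rule did not use, was counted in 8 of 9 CD8 cells of UV plus vitamin D and 43 of 50 of UV, but also in 10 of 33 UV cells with neither coreceptor, so a class set by Cd8a counts did not hold every cell with CD8 transcripts.

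The 4 genes Gzmb, Gzmc, Ifng and Xcl1 carried much of the comparisons below, and their proximal promoters, 250 bases before the annotated start from RefSeq on build GRCm38.p6, are printed so that the motifs can be read beside the counts. Gzmb and Gzmc, neighbouring granzyme genes, lie at chr14:56262335-56262584 and chr14:56234658-56234907 on the minus strand, Ifng lies at chr10:118440796-118441045 on the plus strand and Xcl1, a chemokine that draws dendritic cells, at chr1:164935523-164935772 on the minus strand. Capitals mark matches on either strand to TGANTCA (AP-1), TGTGGT (RUNX), TTCNNNGAA (STAT) or GGAAAA (NFAT).

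Gzmb: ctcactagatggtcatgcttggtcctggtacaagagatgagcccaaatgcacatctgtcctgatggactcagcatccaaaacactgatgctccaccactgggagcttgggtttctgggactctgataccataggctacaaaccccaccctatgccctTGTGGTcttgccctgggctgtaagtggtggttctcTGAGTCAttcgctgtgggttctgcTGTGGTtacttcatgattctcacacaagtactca

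Gzmc: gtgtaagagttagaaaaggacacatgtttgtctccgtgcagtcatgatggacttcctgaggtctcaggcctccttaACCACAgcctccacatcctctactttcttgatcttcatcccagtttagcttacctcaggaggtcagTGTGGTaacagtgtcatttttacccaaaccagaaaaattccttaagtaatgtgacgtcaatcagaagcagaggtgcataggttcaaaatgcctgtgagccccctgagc

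Ifng: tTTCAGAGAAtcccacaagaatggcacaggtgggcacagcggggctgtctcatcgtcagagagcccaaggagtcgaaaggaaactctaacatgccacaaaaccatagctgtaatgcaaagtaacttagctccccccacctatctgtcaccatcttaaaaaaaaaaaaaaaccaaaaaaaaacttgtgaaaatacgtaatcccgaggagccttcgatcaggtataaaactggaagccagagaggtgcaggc

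Xcl1: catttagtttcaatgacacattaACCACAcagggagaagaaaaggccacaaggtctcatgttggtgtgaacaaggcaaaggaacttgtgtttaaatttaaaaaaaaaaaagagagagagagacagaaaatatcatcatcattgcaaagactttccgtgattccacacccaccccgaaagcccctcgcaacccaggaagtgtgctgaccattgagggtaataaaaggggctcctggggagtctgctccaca

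The Gzmb window held 1 AP-1 and 2 RUNX matches, the Gzmc window 2 RUNX matches, the Ifng window 1 STAT match and the Xcl1 window 1 RUNX match. Of 32536 mouse promoters of this length, 6.73% held the AP-1 letters, 14% the RUNX letters, 7.04% the STAT letters and 20.4% the NFAT letters. A match describes letters and not binding.

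The UV library was the one in which classes could be compared, since each of 3 classes held at least 20 cells. Here and below a gene was compared when it had at least 20 counts over both sides, and it was called higher or lower when the ratio of CPM + 10 was at least 2-fold and the exact interval of the count ratio lay wholly beyond 1. Folds of single genes are ratios of CPM. CD8 cells (219183 counts in 50 cells) were set against cells with neither coreceptor (248507 counts in 33 cells). Of 2683 genes compared 26.3% were called, with 11.4% higher and 14.8% lower in CD8 cells, and the median log2 ratio of all was −0.02. Cells with at least 5% keratinocyte counts held 11.9% of the counts in CD8 cells (2 of 50 cells) and 54.8% in cells with neither coreceptor (9 of 33), and 14 of 15 keratinocyte genes were lower in CD8 cells. All 5 melanocyte genes were lower in CD8 cells and of 5 macrophage and dendritic genes 3 (Cd74, H2-Aa and H2-Eb1, genes of antigen presentation) were higher and Cst3 was lower. Each result is therefore given with and without the keratinocyte-rich cells, an alternative chosen after the values were seen that left 48 and 24 cells and 11.3% of 1811 genes called (5.52% higher, 5.74% lower). All 5 melanocyte genes and 5 of 15 keratinocyte genes were still lower there.

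Interferon gamma and granzyme B were higher in CD8 cells than in cells with neither coreceptor. Ifng, the macrophage-activating cytokine, had 136 counts in 22 of 50 CD8 cells and 16 counts in 8 of 33 cells with neither coreceptor, a 9.64-fold higher level (interval 5.73 to 17.3), and was 6.40-fold higher (3.55 to 12.7) without the keratinocyte-rich cells. Gzmb, which cleaves caspases in target cells, had 84 counts in 15 CD8 cells and 1 count in 1 cell with neither (95.2-fold, 16.6 to 3806), or 84 and 0 counts without the keratinocyte-rich cells (at least 16.3-fold). Gzma had 65 counts in 4 CD8 cells and 0 in cells with neither, at least 24.6-fold higher, or at least 12.6-fold without the keratinocyte-rich cells. Of the 65 counts, 36 came from 1 CD8 cell and 24 from another. Gzmc ran the other way, with 65 counts in 11 CD8 cells and 231 counts in 8 cells with neither, 3.13-fold lower in CD8 cells (2.37 to 4.19), or 5.97-fold lower without the keratinocyte-rich cells. Of the 9 killing genes compared, 5 were higher and 2 lower in CD8 cells, with a median log2 ratio of 1.40, against 3 higher and 1 lower of 8 (median 0.81) without those cells.

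Pdcd1 and 4 cell cycle genes (Birc5, Cdk1, Mki67 and Top2a) were also higher in CD8 cells with either set of cells. Pdcd1, which encodes the inhibitory receptor PD-1, had 74 counts in 26 CD8 cells and 17 counts in 11 cells with neither (4.94-fold, 2.88 to 8.92), and was 3.31-fold higher without the keratinocyte-rich cells. Mki67, a proliferation marker, had 57 counts in CD8 cells and 17 in cells with neither (3.8-fold, 2.18 to 6.97, or 2.17-fold without those cells), and Top2a, a topoisomerase of dividing cells, 63 and 19 (3.76-fold, or 2.26-fold). The residency genes Cxcr6 and Itgae were called at 3.21-fold and 2.92-fold higher, but not without the keratinocyte-rich cells (1.79-fold and 1.64-fold). The list counts fell in the same way. Of 20 T-cell signalling genes 16 were higher (median log2 ratio 1.46), against 4 without those cells (0.65). Of 9 residency genes 5 were higher (median 1), against 1 (0.59), and of 20 cell cycle genes 12 were higher (1.29), against 4 (0.60). Of 9 checkpoint genes 5 were higher and Tnfrsf4 was lower (1.05), against 2 higher and 1 lower (0.10). Ccl5, a chemokine for T cells and monocytes, was 12.2-fold higher (118 and 11 counts, 6.56 to 25, or 6.25-fold without the keratinocyte-rich cells), but 58.5% of its CD8 counts came from 1 cell. Il17a, the cytokine of type 17 cells, had 0 counts in CD8 cells and 28 counts in 3 cells with neither, at least 8.23-fold lower in CD8 cells, or at least 16.0-fold without those cells.

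The members taken by Nkg7 alone in UV (22 cells, 151232 counts) looked unlike the CD8 cells. They had counts of Tyrobp and Fcer1g, signalling adaptors of NK receptors. Tyrobp had 115 counts in 17 of 22 cells and 15 counts in 3 of 50 CD8 cells, an 11.1-fold higher level (6.46 to 20.5). Fcer1g had 157 and 86 counts (2.65-fold higher). It was also counted in the Trdc-positive CD3 cells of UV, at a higher level than in marker-supported members (below), so it was not particular to this arm. Of 2 gamma-delta genes compared, Tcrg-C4 was higher and Tcrg-C2 lower in the Nkg7 arm than in CD8 cells, with or without the keratinocyte-rich cells. Set against CD8 cells, 23.1% of 2272 genes were called, 13.6% higher and 9.51% lower, and the median log2 ratio of all was 0.05. Cells with at least 5% keratinocyte counts held 48.8% of the counts in the Nkg7 arm (5 of 22 cells) and 11.9% in CD8 cells, and all 14 keratinocyte genes compared were higher in the Nkg7 arm. Without those cells (17 and 48 cells) 13.4% of 1597 genes were called (5.95% higher, 7.45% lower), and 5 of 13 keratinocyte and 4 of 5 macrophage and dendritic genes were higher in the Nkg7 arm.

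Granzyme C and Xcl1 were concentrated in the Nkg7 arm. Gzmc had 626 counts in 13 of 22 cells of the Nkg7 arm and 65 counts in 11 of 50 CD8 cells, a 14-fold higher level (10.8 to 18.3), or 22.5-fold (17.4 to 29.5) without the keratinocyte-rich cells. Xcl1 had 322 counts in 16 cells and 95 counts in 19 CD8 cells (4.91-fold, 3.9 to 6.24), or 8.25-fold without those cells. Prf1, the pore-forming perforin, had 16 and 6 counts (3.87-fold higher). Car2, a carbonic anhydrase, had 59 counts in 13 cells and 1 count in 1 CD8 cell (85.5-fold, 14.8 to 3434). Thus these 4 genes were higher in the Nkg7 arm, whereas Ifng (7 and 136 counts, 13.4-fold lower, 6.33 to 34.0), Pdcd1 (1 and 74 counts, 51.1-fold lower, 8.89 to 2044), the costimulatory receptor gene Icos (17 and 220 counts, 8.93-fold lower), Cxcr6 (14 and 181 counts, 8.92-fold lower) and Mki67 (6 and 57 counts, 6.56-fold lower) were lower than in CD8 cells. All of these 9 genes kept their call and direction without the keratinocyte-rich cells. Prf1 was then 6.24-fold and Car2 129.7-fold higher, Tyrobp 18.5-fold and Fcer1g 4.21-fold higher, and Pdcd1 was 29.7-fold, Icos 5.19-fold, Cxcr6 5.85-fold and Mki67 3.74-fold lower.

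Receptors shared by NK and activated CD8 cells were not called between those classes. Klrk1 (NKG2D) had 46 counts in the Nkg7 arm and 89 in CD8 cells, Klrc1 (NKG2A) 47 and 84, and Il2rb, the beta chain of the receptors for interleukins 2 and 15, 79 and 129. Of 9 NK genes compared 4 were higher and 0 lower in the Nkg7 arm (median log2 ratio 0.00), or 3 of 7 (0.59) without the keratinocyte-rich cells. Of 17 cell cycle genes 12 were lower (−1.42), against 5 of 16 (−0.81) without those cells, and of 9 checkpoint genes 6 were lower (−1.29), against 3 of 8 (−0.81). The genes that define conventional NK cells were sparse, with 4 counts of Ncr1 in 3 cells and 3 counts of Eomes in 2 cells of the Nkg7 arm. Trac was counted in 5 of its 22 cells. Of the 32 UV members with a Gzmc count, 15 also had a Tyrobp count.

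**Figure D3:**
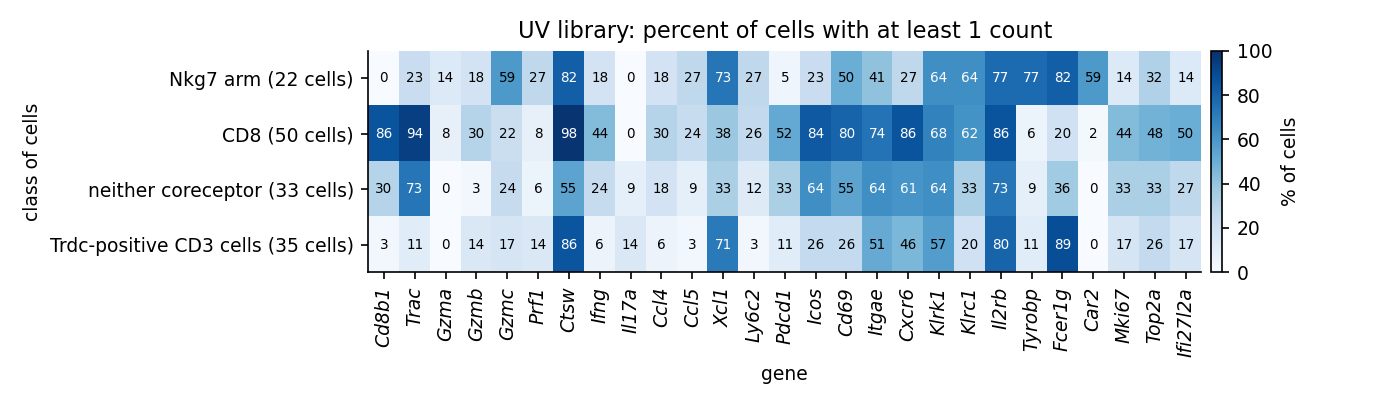
Percent of cells with at least 1 count of each gene (x axis) in 4 classes of the UV library (y axis), without thinning; darker blue is a higher percent and the number is printed in each square. Gzmc, Tyrobp and Car2 counts are most frequent in the Nkg7 arm (59%, 77% and 59% of 22 cells), while Cd8b1, Icos, Cxcr6 and Pdcd1 counts are most frequent in CD8 cells.

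CD4 cells were few. The 6 UV cells all carried Trac, with 35 counts, and Tnfrsf4 (OX40), a costimulatory receptor, with 43 counts in all 6. Il2ra had 9 counts in 4 cells and Ctla4 16 counts in 3 cells, while Foxp3, the regulatory T-cell factor, had 1 count in 1 cell. Over all members Foxp3 had 0, 2 and 0 counts in UV plus vitamin D, UV and control, at or under the limit of detection in each. With 6 cells, no class comparison was made.

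Marker-supported UV members (104 cells) were also set against the Trdc-positive CD3 cells of the same library (35 cells). Members had to carry at least 2 T or NK markers and the Trdc-positive cells did not, so T-cell signalling genes are not read here, nor are the receptor genes, since Trdc was part of the rule. Of 3935 genes compared 18% were called (8.79% higher, 9.22% lower in members; median log2 ratio of all 0.07). Icos had 372 counts in members and 17 in Trdc-positive cells (8.60-fold higher), Ccl5 222 and 1 (87.3-fold, 15.5 to 3462), Ifng 172 and 10 (6.76-fold) and Pdcd1 93 and 8 (4.57-fold). These 4 were still called without the keratinocyte-rich cells, where 13.8% of 2888 genes were called (8.21% higher, 5.57% lower). Gzmc had 922 and 136 counts (2.66-fold, 2.22 to 3.21) and was not called without those cells (1.91-fold). Of 13 checkpoint genes 6 were higher in members and Havcr2 was lower (median 1.10), against 6 higher and 2 lower (0.57) without those cells. Fcer1g was 2.49-fold lower in members (305 and 298 counts), whereas Xcl1 and Il2rb were not called. Other cell types moved as well: 7 of 15 keratinocyte and 5 of 7 macrophage and dendritic genes were lower in members, and 5 of 5 melanocyte and 2 of 3 fibroblast genes were higher. Without the keratinocyte-rich cells 1 of 15 keratinocyte, 5 of 6 macrophage and dendritic and 5 of 5 melanocyte genes were still called in those directions, and their part in the result was not tested.

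Members of UV were also set against those of control, where part of the genes of T and NK function had 0 counts. These were 13 of 21 T-cell signalling genes, 4 of 11 killing genes and 5 of 10 NK genes. The same held for 12 of 22 interferon response genes and 13 of 21 cell cycle genes. Genes at 0 in control passed the minimum of 20 counts through UV alone, so their direction is not read as a result. Of 4030 genes compared 24.5% were called, 14.4% higher and 10% lower, and the median log2 ratio of all was 0.00. Among the lists, 20 of 21 T-cell signalling genes were higher and 0 lower (median log2 ratio 3.23, or 1.95 with the genes at 0 in control set to their bound), as were 8 of 11 killing genes (2.96, or 2.47), 10 of 10 NK genes (2.5, or 2.35), 15 of 22 interferon response genes (2.04, or 1.01) and 18 of 21 cell cycle genes (2.35, or 1.52). Of 15 keratinocyte genes 8 were lower and 1 higher. Since 3 of 13 control members carried at least 2 markers, this comparison sets UV members against cells most of which lacked the markers of the label.

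The genes with the greatest ratios by a fixed rule of size were 8 higher genes. Gzmc had 922 counts in 32 of 111 UV members and 0 in control members, at least 60.3-fold higher. Lgals1, encoding galectin-1, had 2225 counts in UV and 2 in control (218-fold, 60.3 to 1803), Ctla2a, a cathepsin inhibitor gene, 1260 and 1 (247-fold, 44.3 to 9768), Vim, an intermediate filament gene, 986 and 2 (96.7-fold, 26.7 to 799.5) and Xcl1 463 and 1 (90.8-fold, 16.2 to 3594). Ly6c2, a surface marker of memory CD8 cells and monocytes, was at least 24.1-fold higher, Rac2, a GTPase of blood cells, at least 17.9-fold and Cxcr6 at least 17.7-fold. Ifng (172 counts in 36 UV members, 0 in control) was at least 11.2-fold higher and Gzmb (115 in 21, 0 in control) at least 7.52-fold. Control members had no count of any of these genes apart from the few of Lgals1, Ctla2a, Vim and Xcl1. The same rule gave 1 lower gene, Tesc, with 75 counts in UV and 64 in control (4.35-fold lower, 3.07 to 6.16). Tesc was also found at 170 CPM in other UV cells and 229 CPM in other control cells. Its direction turned when members were limited to the marker-supported ones (log2 ratio 3.03). Control then held 3 cells, too few for that direction to be read.

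UV plus vitamin D was set against UV in the same way. Over all members 16.2% of 4354 genes were called, 7.12% higher and 9.1% lower in UV plus vitamin D, with a median log2 ratio of 0.00 to 2 decimals. Most T-cell lists were lower in UV plus vitamin D, among them 11 of 21 signalling genes (median −1.07), 6 of 10 NK genes (−1.05) and 13 of 23 cell cycle genes (−1.14). Keratinocyte counts moved with this, at 6.41% of the counts of a median member in UV plus vitamin D and 0.398% in UV. The comparison was therefore repeated on the 18 and 104 marker-supported members, whose median keratinocyte share was 2.33% in UV plus vitamin D and 0.374% in UV, at median totals of 5205 and 3920. There 13.1% of 3591 genes were called, 7.27% higher and 5.79% lower, with 6 of 15 keratinocyte genes higher, 4 of 5 macrophage genes lower and 5 of 5 melanocyte genes lower in UV plus vitamin D. Of the UV counts of the melanocyte gene Pmel, 99.3% came from 1 cell. Cells with at least 5% keratinocyte counts held 53.8% of the counts in UV plus vitamin D (6 of 18 cells) and 24.0% in UV (10 of 104), so the comparison is also given without them, on 12 and 94 cells, where 8.17% of 2620 genes were called (4.27% higher, 3.89% lower). There 8 of 15 keratinocyte genes were higher and 5 of 5 melanocyte genes lower.

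None of the shared NK receptors was called between UV plus vitamin D and UV in marker-supported members. Residency genes were called only without the keratinocyte-rich cells. The receptor and T-cell signalling genes chose these cells, in whole or in part, so their likeness is not a result. None of 11 residency genes was called (median log2 ratio −0.32). Without the keratinocyte-rich cells 2 of 11 (Cd7 and Itga1) were higher and 1 (Nr4a1) was lower (0.02). Of all genes compared there, 4.27% were higher and 3.89% lower. Klrk1, Klrc1 and Il2rb were not called with either set of cells. Of 4 naive and memory genes 1 (Dapl1) was higher and 2 (Tcf7 and Il7r) were lower. Without the keratinocyte-rich cells 1 (Dapl1) was higher and 1 (Il7r) lower. Leaving those cells out turned the direction of the Dapl1 call in UV, for CD8 cells against cells with neither coreceptor. It also turned for the Nkg7 arm against CD8 cells, so Dapl1 is not read here as a memory gene. Thinning every cell to 2500 counts, Itgae was counted in 50% of marker-supported members in UV plus vitamin D and 47.1% in UV (50% and 67.3% before thinning), and Cxcr6 in 50% and 58.7% (83.3% and 70.2% before thinning). The interval of the thinned Itgae share in UV plus vitamin D ran from 26.0% to 74.0%, so 18 cells bounded that share only loosely.

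The CD8 cells alone are given as values, being too few in UV plus vitamin D for ratios. In 9 CD8 cells of UV plus vitamin D and 50 of UV, Trac stood at 943 and 903 CPM, Nkg7 at 2036 and 2674, Ctsw (a protease of killer cells) at 1589 and 1414, Klrk1 at 447 and 406, Itgae at 348 and 388 and Cxcr6 at 1018 and 826. Keratinocyte genes took a median of 0.661% and 0.356% of their counts, and median totals were 3935 and 3819. Icos and Cxcr6 were counted in 9 of 9 cells of UV plus vitamin D and in 42 and 43 of 50 cells of UV. Ifng was counted in 1 of 9 and 22 of 50 CD8 cells, Gzmb in 4 of 9 and 15 of 50, and Pdcd1 in 3 of 9 and 26 of 50. Gzmc stood at 348 CPM in CD8 cells of UV plus vitamin D (2 cells, 13 of 14 counts in 1) and 297 CPM in those of UV, and Xcl1 at 298 and 433 CPM.

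Granzyme C was lower in the marker-supported members of UV plus vitamin D as a whole, and granzyme A was not counted in them. Gzmc had 20 counts in 4 of 18 cells in UV plus vitamin D and 922 counts in 32 of 104 in UV, 10.3-fold lower (6.61 to 16.9), or 5.93-fold lower (3.81 to 9.75) without the keratinocyte-rich cells. The class mix differed between these libraries. The Nkg7 arm made up 2 of the 18 cells in UV plus vitamin D and 19 of the 104 in UV, and it held 626 of the 922 Gzmc counts and 322 of the 463 Xcl1 counts of UV. Gzma had 0 counts in UV plus vitamin D and 116 counts in 7 cells in UV, at least 8.61-fold lower, or at least 5.23-fold without the keratinocyte-rich cells. Of the 116, single cells held 36, 30, 24 and 18. With 7 of 104 UV cells positive, 0 counts in 18 cells does not show a lower share of Gzma-positive cells. Gzmb was 2.97-fold higher (2.19 to 4), with 76 counts in 5 cells of UV plus vitamin D and 115 in 21 cells of UV, or 4.93-fold without the keratinocyte-rich cells. That call was made in the marker-supported members and not over all members, where Gzmb stood at 329.1 CPM in UV plus vitamin D and 174.9 CPM in UV, and 51.3% of the count in UV plus vitamin D came from 1 cell. Of 11 killing genes, 2 were higher and 3 lower in UV plus vitamin D (median −0.47), while over all members 0 were higher and 6 lower (−1.10). Without the keratinocyte-rich cells 1 was higher and 2 lower of 10, with a median of 0.10, so the list as a whole was not lower there.

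Xcl1 had 24 counts in 8 cells of UV plus vitamin D and 463 counts in 46 cells of UV (4.29-fold lower, 2.85 to 6.77, or 4.66-fold without the keratinocyte-rich cells). Ccl4, a chemokine for T cells and monocytes, had 1 and 333 counts (74.1-fold lower, 13.2 to 2936, or 44.8-fold without those cells), and Ccl5 12 and 222 (4.12-fold lower, 2.31 to 8.09). Ccl1 alone of the 4 chemokines was higher, with 58 counts in each library (4.49-fold higher, 3.07 to 6.58), 70.7% of those in UV plus vitamin D from 1 cell and 51.7% of those in UV from 1 cell. In cells outside the rule Ccl4 stood at 37.5 CPM in UV plus vitamin D and 168 CPM in UV, and Ccl5 at 3.35 and 22.8 CPM, so both were lower there too. Ifng, with 19 counts in 3 cells of UV plus vitamin D and 172 in 36 cells of UV, was 2.02-fold lower (1.25 to 3.43) without being called in marker-supported members, and was called at 10.8-fold lower (2.95 to 90.2, on 2 and 160 counts) without the keratinocyte-rich cells. Il2, the T-cell growth factor, was 6.29-fold higher in UV plus vitamin D (2.60 to 15.8), on 14 counts there and 10 in UV. Of the 14, 64.3% came from 1 cell and all lay in keratinocyte-rich cells, since 0 and 9 counts were left without them, and its direction over all members turned when those with counts of other lineages were left out (log2 ratio −1.60).

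Interferon response genes were lower in UV plus vitamin D in part. Of 22 compared in marker-supported members 12 were lower and 0 higher (median −1.58, or −1.32 with genes at 0 set to their bound), and without the keratinocyte-rich cells 3 of 17 were lower (−1.24). Ifi27l2a, an interferon-induced mitochondrial protein gene, had 5 and 250 counts (11.1-fold lower, 4.71 to 34.6), Bst2 (tetherin, which holds back budding viruses) 2 and 58, and Ly6a (Sca-1) 21 and 290 (3.07-fold lower, not called at 1.91-fold without those cells). Ly6c2 had 2 and 368 counts (41.0-fold lower, 11.3 to 339.5, or 24.9-fold without those cells). In cells outside the rule UV also stood highest, with Ifi27l2a at 20.6 CPM in UV plus vitamin D, 187 in UV and 19.5 in control, Bst2 at 8.19, 60.4 and 5.71, and Ly6a at 113, 352 and 136. For Ifi27l2a, Bst2 and Ly6a the difference was thus not limited to the T and NK members.

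Checkpoint genes were lower in part. Pdcd1 had 5 counts in 3 cells of UV plus vitamin D and 93 counts in 38 cells of UV (4.14-fold lower, or 2.44-fold without the keratinocyte-rich cells), and Ctla4, an inhibitory receptor of activated and regulatory T cells, 0 and 34 counts. In all 4 of 12 checkpoint genes were lower and 0 higher (median −0.53, or −0.43 with genes at 0 set to their bound), with Icos among the 8 not called, and 3 were lower without those cells (median −0.02). Of 23 cell cycle genes 3 were lower and 0 higher (median −0.74), and none was called without those cells (−0.35). Top2a had 8 and 104 counts (2.89-fold lower, not called at 1.91-fold without those cells), whereas Mki67 (12 and 82 counts) and Pclaf (33 and 134 counts), a replication factor, were not called.

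**Figure D4:**
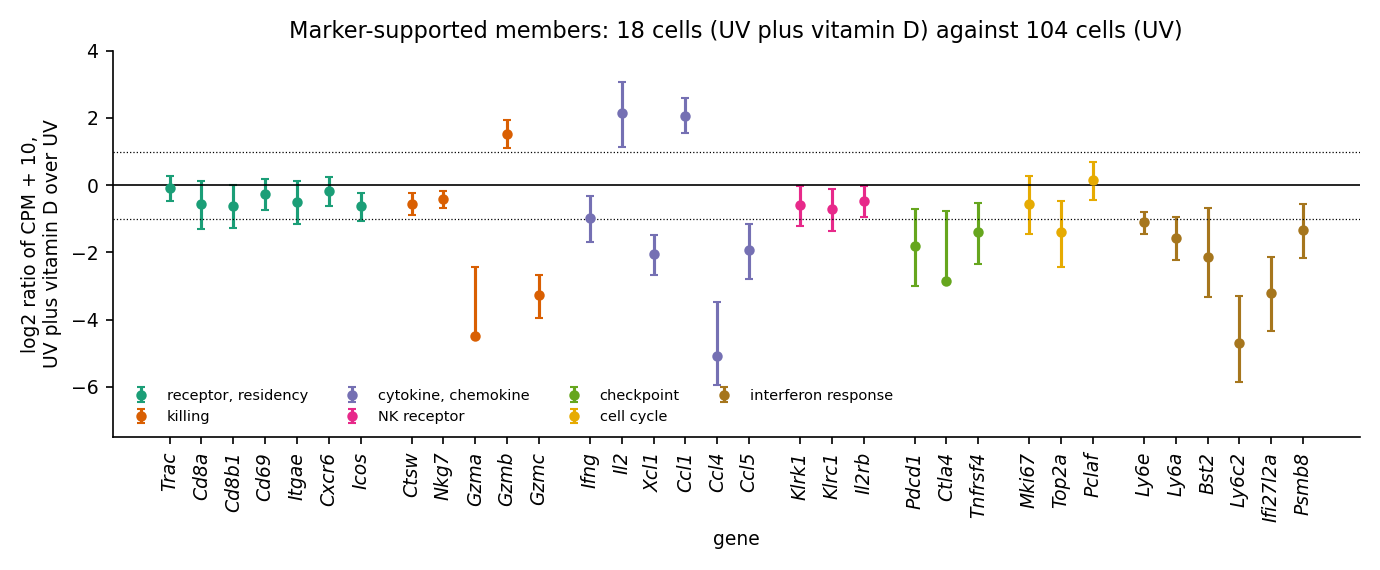
Log2 ratio of CPM + 10, UV plus vitamin D over UV, for named genes in marker-supported members (18 and 104 cells); points are the ratio, bars exact 95% intervals for counting error (1-sided where a library had 0 counts), dotted lines 2-fold. The points of the receptor, residency and NK genes lie within 2-fold of 0, whereas Gzmc, Gzma, Xcl1, Ccl4, Ly6c2 and Ifi27l2a lie below and Gzmb, Il2 and Ccl1 above (the direction of Il2 over all members turned when those with counts of other lineages were left out).

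Other genes fixed for their size were Hilpda, a lipid droplet gene induced by low oxygen, Car2 and the interferon receptor gene Ifnar1. Hilpda had 3 counts in UV plus vitamin D and 120 in UV (8.90-fold lower, 2.98 to 43.8, or 4.65-fold without the keratinocyte-rich cells), Car2 0 and 60 (at least 4.45-fold lower, or 2.39-fold) and Ifnar1 0 and 43 (at least 3.19-fold lower, or 1.67-fold). In UV, Car2 was found almost wholly in the Nkg7 arm, which in UV plus vitamin D held 2 marker-supported cells. No gene met the same rule for a higher level in UV plus vitamin D.

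Set against control, members of UV plus vitamin D had 12.4% of 2241 genes called, 8.66% higher and 3.7% lower (median −0.06). All 7 T-cell signalling genes compared were higher (median 3.40, or 2.68 with genes at 0 in control set to their bound), as were 7 of 8 residency genes (2.43, or 2.07) and 5 of 7 killing genes (3.27, or 2.03), while 0 of 3 interferon response genes was called (−0.20). Gzmb was at least 14.1-fold, Cxcr6 at least 10.2-fold and Cd69 at least 8.56-fold higher. Of the 76 Gzmb counts in UV plus vitamin D, 39 came from 1 cell. At least 2 markers were counted in 3 of 13 control members, and 16 of 28 members of UV plus vitamin D held at least 5% keratinocyte counts. As for UV, the comparison is with cells most of which lacked the markers of the label. Ly6a had 31 counts in UV plus vitamin D and 22 in control and was not called.

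The vitamin D receptor gene Vdr was sparse in members, with 12 counts in 8 cells of UV plus vitamin D, 15 counts in 10 cells of UV and 11 counts in 8 cells of control. In CPM this was 52.0, 22.8 and 85.3, against 49.3, 41.6 and 65.0 in all other cells. In UV only 1 of 50 CD8 cells had a Vdr count. Cyp24a1, the vitamin D degrading enzyme whose gene the receptor induces, had 0 counts in the members of each library, so a response of this gene was not detectable in these cells.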

How the data were processed

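Dissociated whole skin was profiled with a Singleron single-cell kit, per the labels' protocols. The authors deposited 1 table of whole-number counts per library (genes by barcodes). FastQC, fastp, STAR and featureCounts are named without versions in the submitters' processing notes, which list build GRCh38 although the gene symbols are mouse. The sources used here do not say whether a count is a molecule or a read, and overlapping or near-identical genes may share them. No doublet caller was run. The marker and gene lists are counted whole, and not every gene in them is reported here by name.

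Counts were summed over members per library, scaled to 1000000 and compared as log2(CPM + 10), a scale that understates changes of low genes. Genes needed at least 20 counts over both libraries; exact binomial and conditional intervals (95%) cover counting error only, and with 1 library per group no test was made. The calling script was checked on simulated data, in which counts of each gene were drawn independently and not by cell. It was thus not checked for genes whose counts gather in 1 cell. Counts of 3 set the bound for genes at 0. Cells were thinned to 2500 counts for shares. Named genes were the markers, the highest and most different members of each list, up to 8 genes per direction by size with at least 30 counts and at most 25% from 1 cell, and a fixed set; others were named after their values were seen. Members, lists and comparisons were chosen with earlier results of these data known, and the marker-supported, Trac-only, common-minimum and keratinocyte-rich alternatives after seeing the data. Python 3.11.15, numpy 2.4.6, pandas 2.3.3, scipy 1.17.1 and matplotlib 3.10.9 were used.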

Additional observations from a re-analysis of the deposited data

How the results depend on the processing

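With 1 library per group leaving out a library was not possible. No paired analysis was possible because each group has 1 library. Depth limits calls, since 3 counts equal 12.99 CPM in members of UV plus vitamin D. The order of the member shares (UV, then UV plus vitamin D, then control) held under each alternative run, and the causes of the shifts below were not tested. Of 80 calls between libraries on named genes, between 29 (minimums of 4) and 80 stayed calls under an alternative.

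With CD3 and Nkg7 minimums of 4 the share ratio was 148.2 for UV over control, 0.138 for UV plus vitamin D over UV and 20.5 for UV plus vitamin D over control. These minimums left 14 members in UV plus vitamin D, 89 in UV and 1 in control. Every value against control under them, here and below, therefore rests on 1 control cell. With members carrying counts of other lineages left out (4 control members) the share ratio was 37.9 for UV over control and 0.116 for UV plus vitamin D over UV. CD8 cells were then 72.7% of the CD3 arm in UV plus vitamin D. With marker-supported members it was 57.7 for UV over control and 8.79 for UV plus vitamin D over control. Genes called in UV against control, 582 higher and 405 lower, numbered 44 and 127 with minimums of 4, 149 and 174 after thinning, 200 and 208 with other lineages left out, 172 and 216 in marker-supported members and 325 and 230 at 50 counts. The higher ones alone moved to 338 in the CD3 arm and 272 after subtraction of other cells' counts, and the lower ones to 192 under median-ratio scaling. Genes called in UV plus vitamin D against UV, 310 higher and 396 lower, numbered 187 and 139 with minimums of 4, 117 and 61 after thinning, 114 and 91 with other lineages left out and 167 and 201 at 50 counts. The lower ones moved to 220 in the CD3 arm and 208 in marker-supported members, and the higher ones to 529 with no minimum. Genes called in UV plus vitamin D against control, 194 higher and 83 lower, numbered 67 and 45 after thinning, 90 and 20 at 50 counts and 302 and 220 with no minimum. The higher ones moved to 43 with minimums of 4 and 114 with other lineages left out, and the lower ones to 51 under median-ratio scaling. Leaving out cells with at least 5% keratinocyte counts moved the genes called in CD8 cells against those with neither coreceptor to 100 higher and 104 lower (307 and 398 with them), in the Nkg7 arm against CD8 cells to 95 and 119 (308 and 216), in marker-supported members of UV plus vitamin D against UV to 112 and 102 (261 and 208), and against Trdc-positive cells the lower ones to 161 (363).

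Some log2 ratios changed sign. In UV against control these were Tesc (2.81) and Vdr (1.08) with minimums of 4 (1 control cell), and Tesc (3.03) and Vdr (1.60) in marker-supported members (3 control cells). Ly6a (−0.049) changed sign with other lineages left out (4 control cells). The median of lineage transcription factors changed sign after thinning (−0.049), at a common minimum of 3409 counts per cell (−0.15) and at 50 counts (−0.52). In UV plus vitamin D against UV these were Tyrobp (0.80) and Fcer1g (0.17) in the CD3 arm, and Cd8b1 (0.032) and Itgae (0.10) after thinning. With other lineages left out they were Cd8b1 (0.053), Ctsw (0.14), Il2 (−1.60), Itgae (0.22), Fcer1g (0.43), Il2rb (0.19) and the medians of the killing (0.066) and NK (0.0896) lists. After subtraction of other cells' counts they were Fcer1g (0.28) and Il2rb (0.018).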
